A study of Mus musculus with 18 samples.

Results

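The collagen genes of the infarcted mouse heart were described from the RNA-seq table of a time course of acute myocardial infarction (AMI). Members were all row symbols made of Col, a number, the letter a and a number, which gave 44 of the 24419 gene symbols in the table. They comprised 11 fibrillar collagens, 6 basement membrane collagens (the type IV genes) and 27 other collagens. The 18 mice were male C57BL/6 animals, 8 weeks old, with no transgene, and all were anesthetized with sodium pentobarbital. In 15 mice the left anterior descending coronary artery was ligated near its origin, and heart tissue was taken at 10 min, 1 h, 6 h, 24 h or 72 h afterwards, with 3 mice per time. The remaining 3 mice, named control in the labels and sham in the study, served as the reference, and the sources used here do not say whether they had surgery without ligation. The infarcted left ventricle was sampled as bulk tissue, so fewer cells of a type and less RNA per cell cannot be told apart in any value below.

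Collagens are trimeric matrix proteins wound into a triple helix, in which glycine recurs at a fixed spacing along each chain. Fibrillar collagens of types I, III and V assemble into the fibers that give the heart wall and the infarct scar their tensile strength, and cardiac fibroblasts are their main known source. Type IV collagen forms the sheet-like network of basement membranes around capillaries and cardiomyocytes, and the remaining types bead, link, anchor or coat these networks.

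The difference between a long uninterrupted helix and an interrupted one can be read in the coding exons. To illustrate it, 6 exons of genes on which the results turn are shown. They are from GRCm38 with the GENCODE M21 annotation, the build the study aligned to (mm10). The exons were picked for their pattern, so the contrast among them is not a result. Each fibrillar exon was the first in the helix with 54 bases and kept glycine spacing, a length that 305 of 534 fibrillar helix exons had. Each type IV exon was the first short one in the helix with a break in the spacing. Capitals mark glycine codons. In the coding sequences, the longest unbroken run of triplets that each begin with a glycine codon spanned 216 to 344 triplets in the 11 fibrillar genes (median 338), 39 to 66 in the 6 type IV genes (median 43.5) and 23 to 113 in the other 27 (median 45). Of the exons lying within the helix, 511 of 534 fibrillar exons (95.7%) had a length divisible by 9 bases, against 132 of 257 type IV exons (51.4%) and 487 of 645 exons of the others (75.5%). The 4 fibrillar exons are 54 bases long and stand at chr11:94939904-94939957 (Col1a1), chr6:4515481-4515534 (Col1a2), chr1:45325360-45325413 (Col3a1) and chr2:27965251-27965304 (Col5a1), all on the plus strand. The type IV exons, of 84 bases at chr8:11244486-11244569 on the minus strand (Col4a1) and of 72 bases at chr8:11402163-11402234 on the plus strand (Col4a2), carry breaks in the spacing of the capitals.
Col1a1: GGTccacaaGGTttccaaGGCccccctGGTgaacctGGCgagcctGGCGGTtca
Col1a2: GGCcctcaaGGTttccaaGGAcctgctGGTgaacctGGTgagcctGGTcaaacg
Col3a1: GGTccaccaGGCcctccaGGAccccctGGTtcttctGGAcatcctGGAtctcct
Col5a1: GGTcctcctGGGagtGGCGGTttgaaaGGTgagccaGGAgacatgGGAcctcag
Col4a1: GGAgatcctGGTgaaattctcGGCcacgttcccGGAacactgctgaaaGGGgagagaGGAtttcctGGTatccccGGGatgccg
Col4a2: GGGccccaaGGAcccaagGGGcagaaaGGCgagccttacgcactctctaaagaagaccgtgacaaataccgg

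The type IV genes lie as 3 head-to-head pairs. In GENCODE M21 the start sites of Col4a1 and Col4a2 on chromosome 8 are 21 bases apart and the 2 genes overlap by 22 bases, those of Col4a3 and Col4a4 on chromosome 1 are 72 bases apart, and those of Col4a5 and Col4a6 on chromosome X are 1309 bases apart. The strand setting of the counting is not given in the sources used here, so reads in that overlap could not be assigned by strand. The same limit holds for Col15a1, Col5a1, Col4a3 and Col6a6, whose exons overlap annotated transcripts on the opposite strand. It also holds for Col4a2 beyond its overlap with Col4a1, since its exons overlap the antisense gene Gm15419. Among the fibrillar genes, Col3a1 and Col5a2 are neighbors on chromosome 1 with 24614 bases between them.

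Promoter sequence is shown for a pair of fibrillar genes with values below the sham mice at 6 h and above them later, namely Col3a1 (chr1:45311288-45311537) and Col5a1 (chr2:27886175-27886424), both on the plus strand. Each run holds the 250 bases before the RefSeq transcript start (GRCm38.p6), and capitals mark every match, on either strand, to 6 short motifs, none of which contains another. Their shares were taken over the same 250 bases before the start in each RefSeq window, and the windows matched 35 of the 44 collagen genes. The TATA box letters TATAAA were found in 5 of 38 collagen windows and 12.4% of the 32851 windows of all genes. The SMAD box letters CAGAC were found in 17 collagen windows and 42.2% of all windows. The GC box letters GGGCGG were found in 22 collagen windows, or 57.9%, and 32.7% of all windows. The letters CCAAT were found in 13 collagen windows and 33.8% of all windows. The AP-1 letters TGACTCA were found in 1 collagen window and 4.5% of all windows, and the TEAD letters GGAATG in 4 collagen windows and 12.6% of all windows. The Col3a1 run holds the letters TATAAA and not GGGCGG, whereas the Col5a1 run holds GGGCGG and not TATAAA. The TATAAA match of Col3a1 lies near the middle of the 250 bases and not next to the start. These are matches of letters only, and whether any of them acts as a promoter element was not tested.
Col3a1: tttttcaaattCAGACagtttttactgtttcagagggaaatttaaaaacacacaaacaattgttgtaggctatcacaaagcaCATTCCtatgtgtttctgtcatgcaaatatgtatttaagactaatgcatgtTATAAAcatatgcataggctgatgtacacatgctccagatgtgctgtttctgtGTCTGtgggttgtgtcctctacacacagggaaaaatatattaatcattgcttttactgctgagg
Col5a1: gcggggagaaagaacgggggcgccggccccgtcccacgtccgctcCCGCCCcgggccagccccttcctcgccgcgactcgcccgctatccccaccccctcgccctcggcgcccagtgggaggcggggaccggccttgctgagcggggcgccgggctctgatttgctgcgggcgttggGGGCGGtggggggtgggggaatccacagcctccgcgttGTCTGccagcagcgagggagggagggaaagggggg

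Levels were deposited as FPKM, fragments per kilobase of transcript scaled to the mapped fragments of each library, which can be compared between genes. The FPKM of all symbols summed to 542418 to 600467 per mouse, and the lowest correlation between mice of a group was 0.969. Read totals are not given, and the relative sequencing depth estimated from the smallest steps of the values ranged from 0.812 to 1.32 of the first sham mouse. It was 1.25 to 1.32 in the 72 h mice, so that group was the most deeply sequenced by this estimate. Cardiomyocyte markers were high in the sham mice, where 6 of them summed to 43036 to 45177 FPKM, as the tissue label states. Genes were tested where they reached FPKM 1 in at least 1 mouse, by limma on log2(FPKM + 1) with Benjamini-Hochberg adjustment over all symbols tested, and a gene was called higher or lower at an adjusted p under 0.05. Fold changes on this scale understate the change of low genes, and ratios of mean FPKM are named as such.

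Of the 44 collagen genes, 28 passed this filter: 9 fibrillar, 5 basement membrane and 14 other genes. The 16 below it had their highest values between 0.0262 (Col10a1, the collagen of hypertrophic cartilage) and 0.57 (Col4a6). They also included the cartilage genes Col2a1 (0.102), Col9a1 (0.0736), Col9a3 (0.292) and Col11a2 (0.465), and the epithelial anchoring collagen Col17a1 (0.103). The remaining ones were Col6a4 (0.0561), Col6a5 (0.422), Col13a1 (0.542), Col19a1 (0.0358), Col20a1 (0.502), Col22a1 (0.239), Col23a1 (0.519), Col25a1 (0.326) and Col26a1 (0.477). Just below the threshold stood Col4a6 and Col13a1, and just above it Col4a3 with a highest value of 1.14 in a 10 min mouse and Col24a1 with 1.21 in a 72 h mouse. Col24a1 was among 6 genes (Col7a1, Col8a2, Col9a2, Col11a1, Col24a1 and Col28a1) that reached FPKM 1 only in 72 h mice, so their place among the tested genes was set by the group in which they were high.

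**Figure D1:**
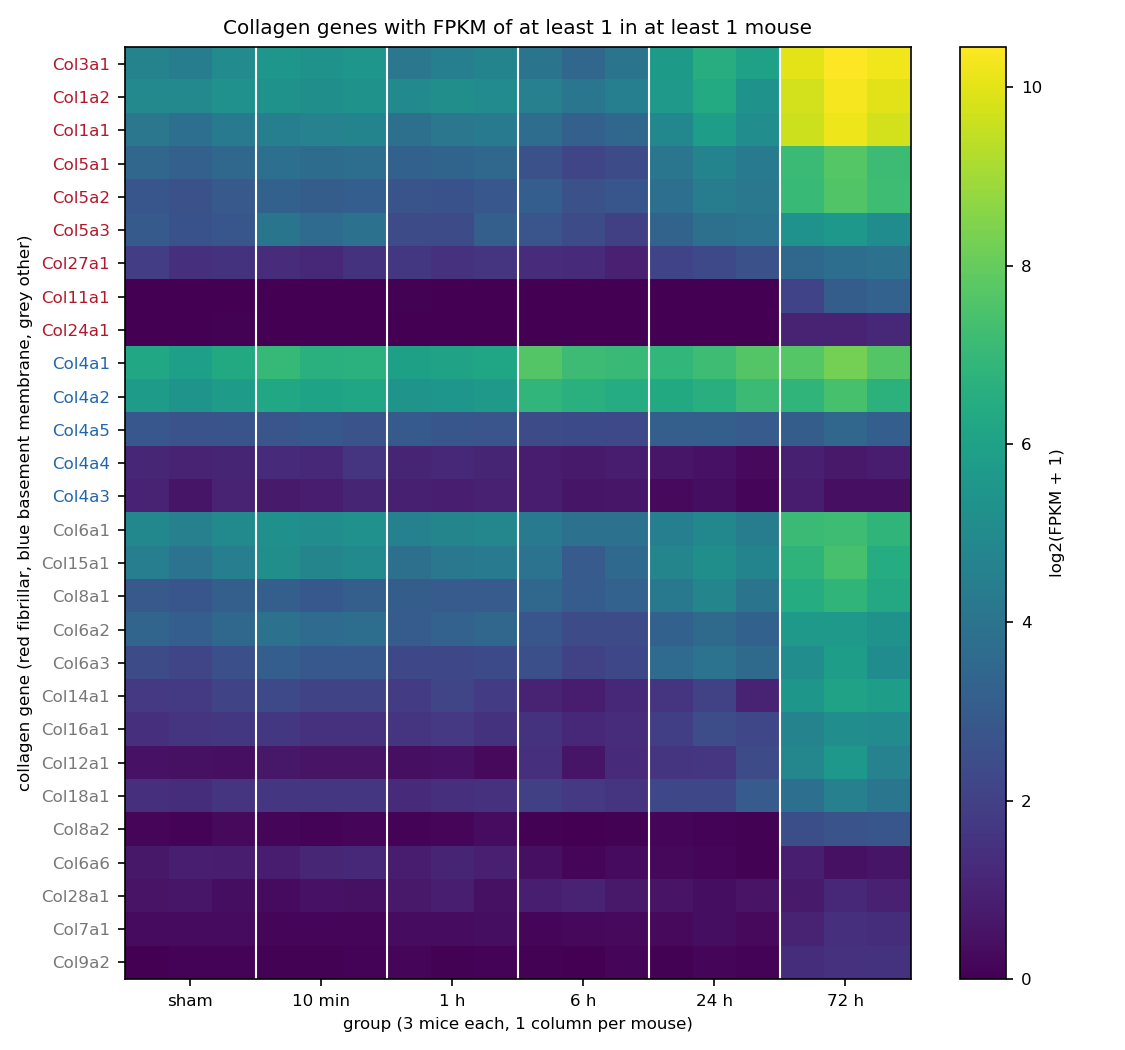
Level of the 28 collagen genes that reached FPKM 1 in at least 1 mouse, as log2(FPKM + 1) on the color scale, with 1 row per gene and 1 column per mouse, 3 mice per group. The fibrillar rows at the top brighten at 72 h, while Col4a1 and Col4a2 are the brightest rows in the sham to 24 h mice.

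In the sham heart, type IV collagen led. Col4a1 and Col4a2, whose products form the common network of vascular and muscle basement membranes, stood at 71.4 ± 11.7 and 48.6 ± 5.96 FPKM (SD, n = 3), and their values did not overlap. Behind them came Col1a2 at 32.4 ± 5.35, Col6a1 at 27.1 ± 4.16 and Col3a1 at 25.7 ± 5.99 FPKM, whose ranges overlapped. Col15a1, which links basement membranes to the surrounding matrix, stood at 19.0 ± 3.60 and Col1a1 at 16.3 ± 2.96 FPKM, again with overlapping ranges. All 44 genes together held 302 ± 44.5 FPKM, or 0.0518% of the FPKM of all symbols. Of this, the type IV genes made up 42.3%, the fibrillar genes 32.5% and the others 25.2%.

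After ligation the makeup of the collagen RNA changed in both directions. The fibrillar genes made up 16.1 ± 2.13% of the collagen FPKM at 6 h and 78.9 ± 1.69% at 72 h, and the type IV genes 69.7 ± 3.18% and 8.26 ± 0.76%. In FPKM, the fibrillar sum was 96.4, 83.0 and 115 in the sham mice and 70.3, 48.9 and 61.8 at 6 h. It reached 169, 293 and 191 in the 24 h mice, then 3036, 4314 and 3410.3 in the 72 h mice. The type IV sum was 137, 107 and 140.0 in the sham mice and 319.9, 246 and 222 at 6 h. It was 209, 250.1 and 343 in the 24 h mice, then 332, 490.0 and 313 in the 72 h mice. None of the 6 h or 24 h values of either class overlapped with the sham values. At 72 h the 44 genes held 4548 ± 853 FPKM, or 0.825% of all FPKM, and Col3a1, Col1a2 and Col1a1 ranked 50, 70 and 81 among all symbols, where Col4a1 had held the highest collagen rank in the sham mice, 1147.

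**Figure D2:**
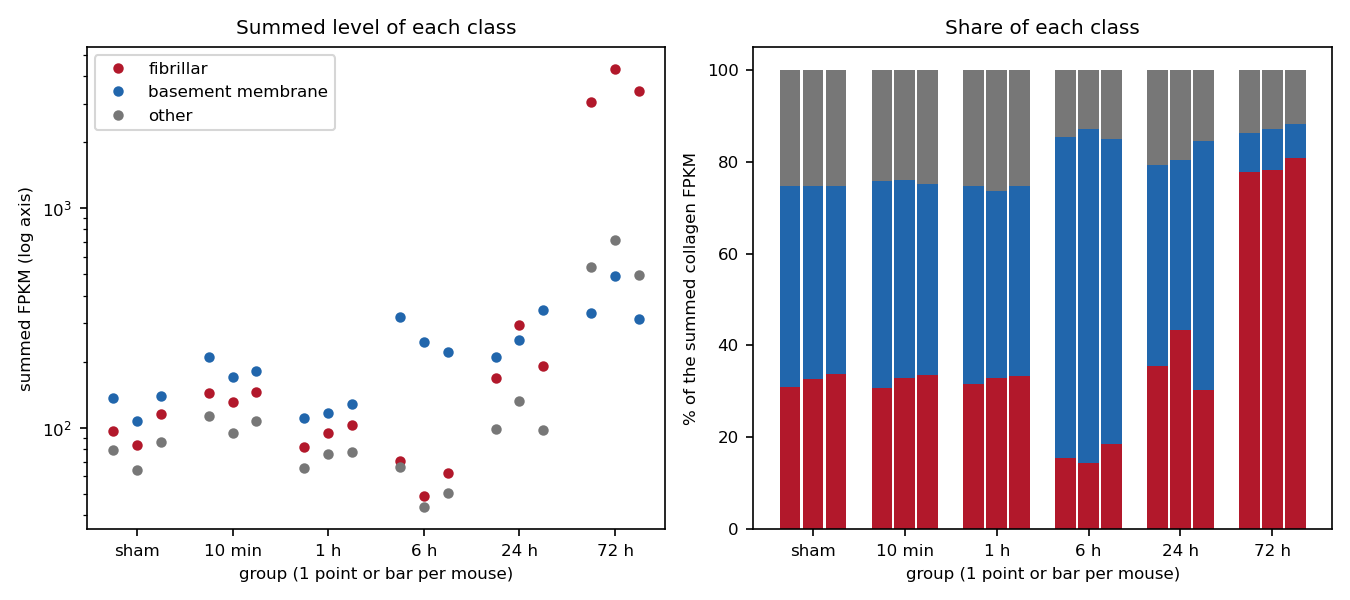
Left, summed FPKM (log axis) of the 11 fibrillar, 6 basement membrane and 27 other collagen genes, 1 point per mouse and class. Right, the share of each class in the summed collagen FPKM of each mouse, 1 bar per mouse. Basement membrane collagen holds most of the bar at 6 h and fibrillar collagen at 72 h.

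At 10 min, 1 of the 28 tested collagen genes was called higher than in sham mice and none lower, where 0.248% of all tested symbols were called higher and 0.0978% lower. The gene was Col5a3, a chain of type V collagen, which nucleates and limits the width of type I fibrils. It stood at 15.5, 11.6 and 14.0 FPKM against 6.75, 5.25 and 6.01, with a log2 fold change of 1.07 ± 0.12 (SE, adjusted p = 0.0357). All 3 values lay above the sham values, but the call was lost without any 1 of the 3 sham mice or without the third 10 min mouse (adjusted p 0.0887 to 0.119), and also with no filter on low values (0.0962), a common fit of all 18 mice (0.112) or no variance trend (0.0508). In these last 3 settings the 33 higher and 13 lower calls over all symbols became 1 and 0, 3 and 5, and 5 and 3.

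Beyond that call, the 10 min mice held higher values of many collagen genes without passing the test. In 14 of the 28 genes the values lay wholly above the sham values, against 12.2% of all tested symbols, and in 1 gene (Col7a1, the anchoring fibril collagen) wholly below, against 8.15%. At an unadjusted p under 0.05, 13 were higher and 1 lower, against 8.70% and 6.00% of all symbols. Col3a1 stood at 44.1, 38.9 and 44.3 FPKM against 24.7, 20.2 and 32.1 (log2 difference 0.73 ± 0.15, adjusted p = 0.0978). Col4a1 stood at 126, 97.1 and 102 against 76.2, 58.0 and 79.9 (0.60 ± 0.14, adjusted p = 0.127), and Col15a1 at 34.8, 25.7 and 30.8 against 20.9, 14.8 and 21.2 (0.66 ± 0.15, adjusted p = 0.133). Genes of all 3 classes were thus among those with separated values. The fibroblast markers summed to 695 to 818 FPKM at 10 min and 608 to 693 in the sham mice, with none of 8 called, and the part of this in the collagen values was not tested.

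At 1 h no collagen gene was called in either direction, where 0.669% of all symbols were called higher and 0.0526% lower. None of the 28 passed an unadjusted p under 0.05, against 5.52% of all symbols in the higher and 7.06% in the lower direction, and no alternative setting gave a call. In 2 genes the values lay wholly above the sham values (7.41% of all symbols) and in none wholly below (10.9%). The median log2 difference of the 28 genes was -0.01, beside -0.02 for all symbols. Col3a1 stood at 16.7, 21.8 and 25.6 FPKM, Col4a1 at 60.8, 64.2 and 70.3, and Col5a3 at 4.22, 4.31 and 7.87, all overlapping the sham values.

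At 6 h the collagen genes split. Col4a1 and Col4a2 were higher than in sham mice, and 11 of the 28 genes were lower, where 11.6% of all symbols were called higher and 16.8% lower. The lower genes were 4 of 9 fibrillar (Col1a1, Col1a2, Col3a1 and Col5a1), 2 of 5 type IV (Col4a4 and Col4a5) and 5 of 14 other collagens (Col6a1, Col6a2, Col6a6, Col14a1 and Col15a1). The median log2 difference was -0.22 for the 28 genes and -0.08 for all symbols. In 14 collagen genes the values lay wholly below the sham values and in 5 wholly above, against 30.2% and 18.6% of all symbols.

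The pair of higher genes rose by about the same size. Col4a1 stood at 198, 143 and 129.6 FPKM at 6 h, a 2.20-fold higher mean than in the sham mice (log2 1.11 ± 0.18, adjusted p = 0.0059). Col4a2 stood at 116, 97.6 and 86.6 FPKM against 51.9, 41.8 and 52.2, a 2.06-fold higher mean (log2 1.02 ± 0.13, adjusted p = 0.00269). Both calls held without any 1 mouse. The ratio of Col4a1 to Col4a2 was 1.56 ± 0.133 at 6 h and 1.46 ± 0.0705 in the sham mice, with overlapping values (exact permutation p = 0.5, two-sided, adjusted p = 0.714 over 30 tests).

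Among the 4 fibrillar genes called lower at 6 h, Col5a1 had the largest fold change. It stood at 4.98, 3.54 and 4.17 FPKM against 9.92, 8.30 and 10.7 in the sham mice, a 2.28-fold lower mean (log2 -1.03 ± 0.14, adjusted p = 0.00303). Col3a1, the chain of type III collagen in fine, extensible fibers, stood at 15.3, 9.81 and 15.4 FPKM (log2 -0.88 ± 0.21, adjusted p = 0.0224). The 2 chains of type I collagen, the main fiber of scars, fell alike: Col1a1 to 12.5, 8.26 and 10.4 FPKM from 16.7, 13.2 and 19.0, and Col1a2 to 22.4, 16.3 and 21.7 from 29.5, 29.1 and 38.6. Their log2 fold changes were -0.60 ± 0.17 (adjusted p = 0.0386) and -0.66 ± 0.15 (adjusted p = 0.0202), and no 6 h value reached a sham value.

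Type V collagen, whose common heterotrimer holds the products of Col5a1 and Col5a2, did not move as one. Col5a2 stood at 7.76, 5.05 and 6.02 FPKM at 6 h and 5.90, 5.06 and 6.63 in the sham mice (log2 0.07 ± 0.16, adjusted p = 0.743). The ratio of Col5a1 to Col5a2 within a mouse was 1.68, 1.64 and 1.61 in the sham mice and 0.642, 0.702 and 0.692 at 6 h, then 1.22, 1.23 and 1.04 at 24 h and 1.06, 1.05 and 0.98 at 72 h. None of the 6 h, 24 h or 72 h ratios overlapped the sham ratios, and each comparison reached the smallest two-sided exact permutation p that 3 against 3 mice allow, 0.1 (adjusted p = 0.231 over 30 tests). Such a p cannot pass 0.05 at this group size.

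Outside the fibrillar class, Col14a1, whose product sits on the surface of fibrils, was 2.63-fold lower at 6 h: 1.08, 0.796 and 1.23 FPKM against 2.30, 2.45 and 3.42 (log2 -0.87 ± 0.14, adjusted p = 0.00621). The microfibril-forming type VI chains Col6a1 and Col6a2 were 1.70-fold and 1.94-fold lower, with log2 fold changes of -0.73 ± 0.16 (adjusted p = 0.0158) and -0.83 ± 0.16 (adjusted p = 0.00952). Their partner chain Col6a3 stood at 4.78, 3.03 and 3.85 FPKM against 4.40, 3.52 and 4.92 (log2 -0.12 ± 0.16, adjusted p = 0.601). Col6a6 stood at 0.353, 0.129 and 0.22 FPKM against 0.592, 0.812 and 0.791 (log2 -0.49 ± 0.10, adjusted p = 0.0131), and Col15a1 at 14.7, 7.05 and 10.7 against 20.9, 14.8 and 21.2 (log2 -0.79 ± 0.25, adjusted p = 0.0492). Col4a5 stood at 4.37, 4.16 and 3.91 against 6.11, 5.31 and 5.51 (log2 -0.37 ± 0.10, adjusted p = 0.0279) and Col4a4 at 0.753, 0.703 and 0.767 against 1.16, 0.993 and 1.13 (log2 -0.27 ± 0.08, adjusted p = 0.0471). All of these called genes lay below every sham value.

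The count of 11 lower genes at 6 h rested on the full set of sham mice. It was 4 without the first sham mouse, 7 without the second and 3 without the third, where the lower calls over all symbols fell from 2233 to 877, 1016 and 852. It was 7 after median-of-ratios scaling, where the calls over all symbols moved from 1543 higher and 2233 lower to 1922 and 1586. Marker genes moved at the same time: the fibroblast markers summed to 538 to 658 FPKM at 6 h and 608 to 693 in the sham mice, with 1 of 8 called higher (Mfap5) and 1 lower (Lum). Of the endothelial markers, whose cells are known to make type IV collagen, 1 of 8 was called higher (Pecam1) and 3 lower (Kdr, Tek and Emcn), and their sum was 922 to 1152 FPKM against 1009 to 1099. The pericyte and smooth muscle markers summed to 297 to 337 against 408 to 431, with 4 of 7 lower, and the neutrophil markers to 111 to 956 against 2.14 to 4.83, with 4 of 4 higher. No defining marker of the fibroblast or endothelial list was at 0 in these groups, and the part of these shifts in the collagen values was not tested.

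**Figure D3:**
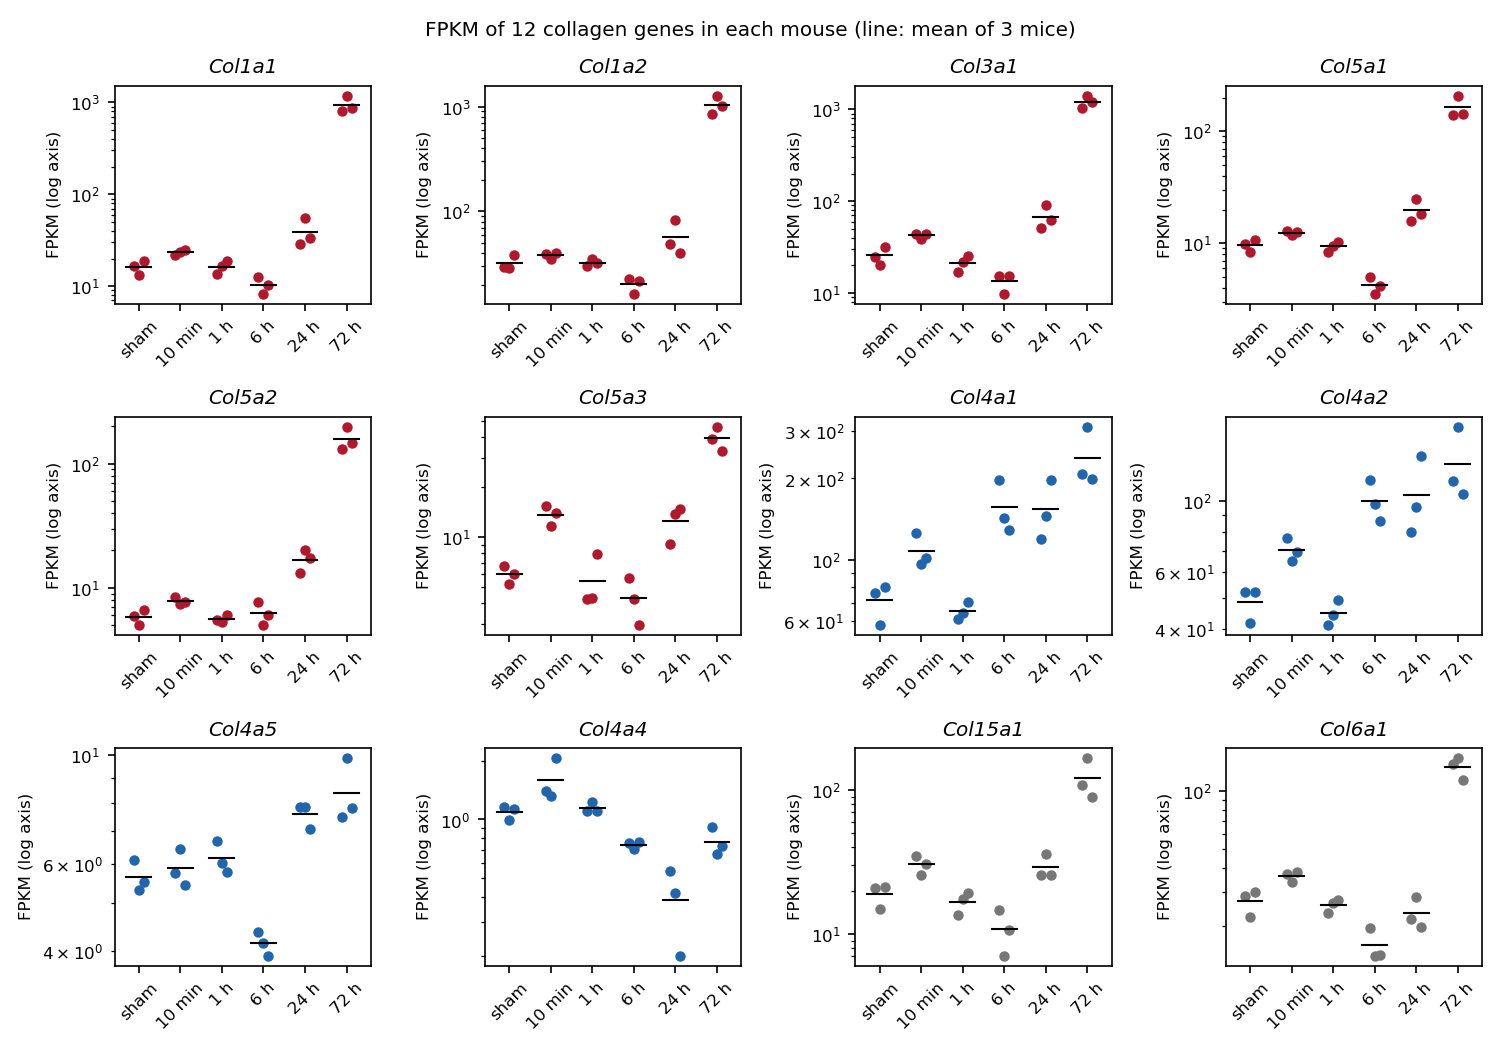
FPKM (log axis) of 12 collagen genes in each mouse by group, 1 point per mouse, with a line at the mean of 3 mice (red fibrillar, blue basement membrane, grey other). Most panels dip at 6 h and peak at 72 h, whereas Col4a1 and Col4a2 are already above the sham mice at 6 h and Col4a4 is lowest at 24 h.

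At 24 h, 15 of the 28 collagen genes were higher than in sham mice and 3 lower, where 26.2% of all symbols were called higher and 11.4% lower. The higher genes were 6 of 9 fibrillar, 3 of 5 type IV and 6 of 14 other collagens. The median log2 difference was 0.61 for the 28 genes and 0.13 for all symbols. Other scalings moved the median of all symbols at 24 h to 0.01 (median-of-ratios) or -0.06 (quantile) and their calls from 3496 higher and 1516 lower to 2460 and 2426 or 2118 and 2736, with 13 or 12 collagen genes higher and 3 lower. The count of 15 fell to 8 without the second sham mouse, where the higher calls over all symbols fell from 3496 to 1319.

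Among the fibrillar genes at 24 h, Col5a2 stood at 13.1, 20.3 and 17.4 FPKM, 2.89-fold above the sham mean (log2 1.37 ± 0.17, adjusted p = 0.00387). Col3a1 stood at 50.5, 91.2 and 61.8 FPKM (log2 1.35 ± 0.24, adjusted p = 0.00895), Col1a1 at 28.5, 54.9 and 33.8 (log2 1.17 ± 0.25, adjusted p = 0.0137) and Col5a1 at 16.0, 25.0 and 18.1 (log2 0.94 ± 0.17, adjusted p = 0.00947). The second 24 h mouse was the highest in each of these genes, and all 3 mice lay above the sham mice. Col1a2 stood at 48.5, 83.3 and 40.0 FPKM, also above every sham mouse, with a log2 difference of 0.75 ± 0.26 that missed the threshold (adjusted p = 0.0608). Col5a3 and Col27a1 were 2.09-fold and 1.95-fold higher (adjusted p = 0.0119 and 0.0211). Col11a1 and Col24a1 stayed at or below 0.0303 FPKM in every mouse outside the 72 h group, except for 0.0323 FPKM of Col11a1 in a 1 h mouse.

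Of the others at 24 h, Col12a1, a fibril-associated collagen of tissues under tension, stood at 1.96, 2.11 and 4.35 FPKM against 0.415, 0.387 and 0.355 (log2 1.40 ± 0.22, adjusted p = 0.00672). Col8a1, a short-chain collagen of vessel walls, stood at 17.8, 25.9 and 15.1 against 6.62, 5.93 and 8.01 (log2 1.36 ± 0.20, adjusted p = 0.00566), and Col6a3 at 11.6, 14.6 and 11.1 (log2 1.35 ± 0.15, adjusted p = 0.00269). Col15a1, Col16a1 and Col18a1, the last of which carries endostatin, were also higher, by 0.59 to 1.03 on the log2 scale. Col6a1 stood at 21.9, 28.5 and 19.8 FPKM against 28.7, 22.3 and 30.1 and Col6a2 at 8.51, 11.4 and 8.38 against 9.75, 7.64 and 10.4, both overlapping the sham values (adjusted p = 0.344 and 0.937). The 4 tested chains of type VI collagen were therefore not called alike at 24 h, since Col6a3 was higher, Col6a1 and Col6a2 were not called and Col6a6 was lower.

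In type IV collagen at 24 h, Col4a1 stood at 120.1, 146 and 198 FPKM (log2 1.09 ± 0.20, adjusted p = 0.00966), Col4a2 at 80.1, 95.6 and 137 (log2 1.06 ± 0.20, adjusted p = 0.0102) and Col4a5 at 7.84, 7.86 and 7.08 (log2 0.37 ± 0.10, adjusted p = 0.0251). The call of Col4a5 was lost after median-of-ratios or quantile scaling (adjusted p = 0.108 and 0.263). Col4a3 and Col4a4, partner chains of the mature kidney filter network, went the other way. Col4a3 stood at 0.208, 0.295 and 0.149 FPKM against 0.985, 0.519 and 1.06, and Col4a4 at 0.543, 0.422 and 0.201 against 1.16, 0.993 and 1.13. Both had a log2 fold change of -0.60 (SE 0.14 and 0.12, adjusted p = 0.0186 and 0.0123). Col6a6 was the remaining lower gene, at 0.179, 0.135 and 0.0474 FPKM (log2 -0.63 ± 0.10, adjusted p = 0.00721). These 3 genes lay between 0.519 and 1.16 FPKM in the sham mice and at most at 0.543 FPKM at 24 h. The count of 3 was 1 without the first sham mouse, where the lower calls over all symbols fell from 1516 to 366. It was 0 when a mean FPKM of 1 was required, which removed these genes.

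Compared directly, 13 collagen genes were higher at 24 h than at 6 h and none lower, where 12.5% of all symbols were called higher and 1.94% lower. They were 7 fibrillar genes, Col4a5, and 5 of the others (Col6a2, Col6a3, Col8a1, Col15a1 and Col16a1). The log2 difference was 2.23 ± 0.25 for Col3a1 (adjusted p = 0.0103), 1.97 ± 0.19 for Col5a1 (adjusted p = 0.00884) and 1.78 ± 0.25 for Col1a1 (adjusted p = 0.014). Col4a1 and Col4a2 differed by -0.03 ± 0.22 and 0.03 ± 0.21 (adjusted p = 0.943 and 0.92). At an unadjusted p under 0.05, 16 of the 28 genes were higher and 3 lower, against 30.2% and 6.21% of all symbols. The calls depended on single mice: 0 remained without the second or the third 6 h mouse, 2 without the second 24 h mouse and 8 without the first 6 h mouse. After median-of-ratios or quantile scaling 8 were called, and the calls over all symbols moved from 1664 higher and 258 lower to 403 and 368 or 371 and 277.

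At 72 h, 25 of the 28 collagen genes were higher than in sham mice and 1 lower, where 53.1% of all symbols were called higher and 24.2% lower. All 9 tested fibrillar genes, 13 of 14 other genes and 3 of 5 type IV genes were higher. These class counts and the medians below include the 6 genes that passed the filter only through the 72 h mice. They were Col11a1 and Col24a1 among the fibrillar genes and Col7a1, Col8a2, Col9a2 and Col28a1 among the others. The median log2 difference was 2.50 for the 28 genes, 3.94 for the fibrillar genes, 2.53 for the others and 0.49 for the type IV genes, beside 0.29 for all symbols. That median of all symbols was 0.03 after median-of-ratios scaling and -0.12 after quantile normalization, and the calls over all symbols moved from 7081 higher and 3226 lower to 5208 and 4792 or 4278 and 5794. The collagen genes then gave 24 higher and 2 lower or 23 higher and 3 lower. The count of 25 was the same without any 1 mouse. Of the 22 genes that did not owe their place to the 72 h mice alone, 19 were higher. With no filter on low values 31 of all 44 were, against 7922 of 18755 symbols.

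Types I and III led at 72 h. Col1a1 stood at 806, 1178 and 862 FPKM, a 58.2-fold higher mean than in the sham mice (log2 5.77 ± 0.17, adjusted p = 2.58e-08). Col3a1 stood at 1045, 1399 and 1188 FPKM, 47.2-fold higher (log2 5.52 ± 0.16, adjusted p = 2.94e-08), and Col1a2 at 859, 1264 and 1012, 32.3-fold higher (log2 4.96 ± 0.15, adjusted p = 3.49e-08). The second 72 h mouse was the highest in all 3, and the ranges of the 3 genes overlapped. The ratio of Col1a1 to Col1a2 was 0.939, 0.932 and 0.852 at 72 h and 0.566, 0.453 and 0.494 in the sham mice. The ratio of Col3a1 to Col1a1 was 1.297, 1.19 and 1.38 at 72 h and 1.48, 1.54 and 1.69 in the sham mice. Neither ratio overlapped between the groups (exact permutation p = 0.1 each, two-sided, adjusted p = 0.231).

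Type V followed, with Col5a2 at 132, 198 and 147 FPKM (27.1-fold, log2 4.53 ± 0.15, adjusted p = 4.23e-08) and Col5a1 at 140.5, 207 and 144 FPKM (17.0-fold, log2 3.94 ± 0.15, adjusted p = 9.80e-08). Col5a3 stood lower, at 39.1, 46.0 and 32.9 FPKM (6.55-fold, log2 2.52 ± 0.13, adjusted p = 4.18e-07). Col27a1, a fibrillar collagen of developing cartilage, stood at 10.3, 12.6 and 13.9 against 2.72, 1.70 and 1.86 (log2 2.1 ± 0.15, adjusted p = 2.52e-06). The cartilage and fetal fibrillar gene Col11a1 was listed between 0 and 0.0115 FPKM in the sham mice and at 3.30, 7.5 and 8.82 FPKM at 72 h. Col24a1, known from forming bone, stood at 0, 0.0258 and 0.0303 FPKM in the sham mice and at 1.01, 1.03 and 1.21 at 72 h. The last 2 genes passed the filter through the 72 h mice alone.

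Several collagens that coat or bridge fibrils stood high at 72 h. Col12a1 stood at 27.5, 46.2 and 24.1 FPKM (log2 4.54 ± 0.20, adjusted p = 2.15e-07), Col14a1 at 45.3, 64.7 and 55.7 (log2 3.91 ± 0.15, adjusted p = 9.27e-08) and Col16a1 at 24.3, 34.0 and 31.6 (log2 3.37 ± 0.13, adjusted p = 9.46e-08). Their sham levels were at most 0.415, 3.42 and 2.22 FPKM. The short-chain pair Col8a1 and Col8a2 stood at 87.8, 113 and 78.8 FPKM and at 4.69, 5.45 and 5.89 FPKM (log2 3.58 ± 0.14 and 2.48 ± 0.10). The adjusted p was 1.10e-07 for Col8a1, while Col8a2 had passed the filter through the 72 h mice alone. Their ratio was 18.7, 20.7 and 13.4 at 72 h and 54.6, 76.4 and 39.4 in the sham mice, without overlap, although Col8a2 was at most 0.204 FPKM in the sham mice. Col9a2, a cartilage fibril-associated chain, and Col7a1 had also passed the filter only there. Col9a2 stood at 1.54, 1.78 and 1.92 FPKM and Col7a1 at 1.07, 1.71 and 1.60, against at most 0.0793 and 0.241 in the sham mice.

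In type VI collagen, 3 of 4 tested chains were higher at 72 h, with Col6a1 at 139, 148 and 114 FPKM (4.95-fold), Col6a2 at 50.1, 49.8 and 40.3 (5.04-fold) and Col6a3 at 33.8, 55.1 and 32.7 (9.47-fold). The ratio of Col6a1 to Col6a2 was 2.86 ± 0.105 at 72 h and 2.92 ± 0.0276 in the sham mice, with overlapping values (exact permutation p = 0.5, two-sided, adjusted p = 0.714). Both multiplexin collagens of basement membrane zones were also higher: Col15a1 stood at 109, 167 and 88.7 FPKM (6.40-fold, adjusted p = 9.45e-06) and Col18a1 at 13.1, 22.5 and 16.3 (9.70-fold, adjusted p = 1.38e-06). Col28a1 stood at 0.677, 1.28 and 0.946 FPKM against 0.457, 0.55 and 0.292 (log2 0.45 ± 0.13), a direction that turned after quantile normalization (log2 -0.11), and it too had passed the filter only through the 72 h mice. Col6a6, at 0.82, 0.373 and 0.493 FPKM, overlapped the sham values (adjusted p = 0.269).

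The type IV genes had the lowest median difference of the 3 classes at 72 h. Col4a1 stood at 207, 309 and 199 FPKM (3.34-fold, log2 1.71 ± 0.18, adjusted p = 3.35e-05) and Col4a2 at 115, 169 and 105 (2.67-fold, log2 1.37 ± 0.17, adjusted p = 9.70e-05). Their ratio was 1.80, 1.83 and 1.90 at 72 h and 1.47, 1.39 and 1.53 in the sham mice, without overlap (exact permutation p = 0.1, two-sided, adjusted p = 0.231). Col4a5, on the X chromosome, stood at 7.49, 9.87 and 7.79 FPKM (1.49-fold, adjusted p = 0.00277), a call lost after median-of-ratios or quantile scaling (adjusted p = 0.0835 and 0.686). Col4a4, at 0.91, 0.664 and 0.729 FPKM, was called lower (log2 -0.25 ± 0.09, adjusted p = 0.0364), and the call was lost without the first or the third sham mouse, or without the second or the third 72 h mouse (adjusted p 0.0832 to 0.111). Col4a3, at 0.767, 0.356 and 0.355 FPKM, was not called (log2 -0.31 ± 0.15, adjusted p = 0.0917).

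**Figure D4:**
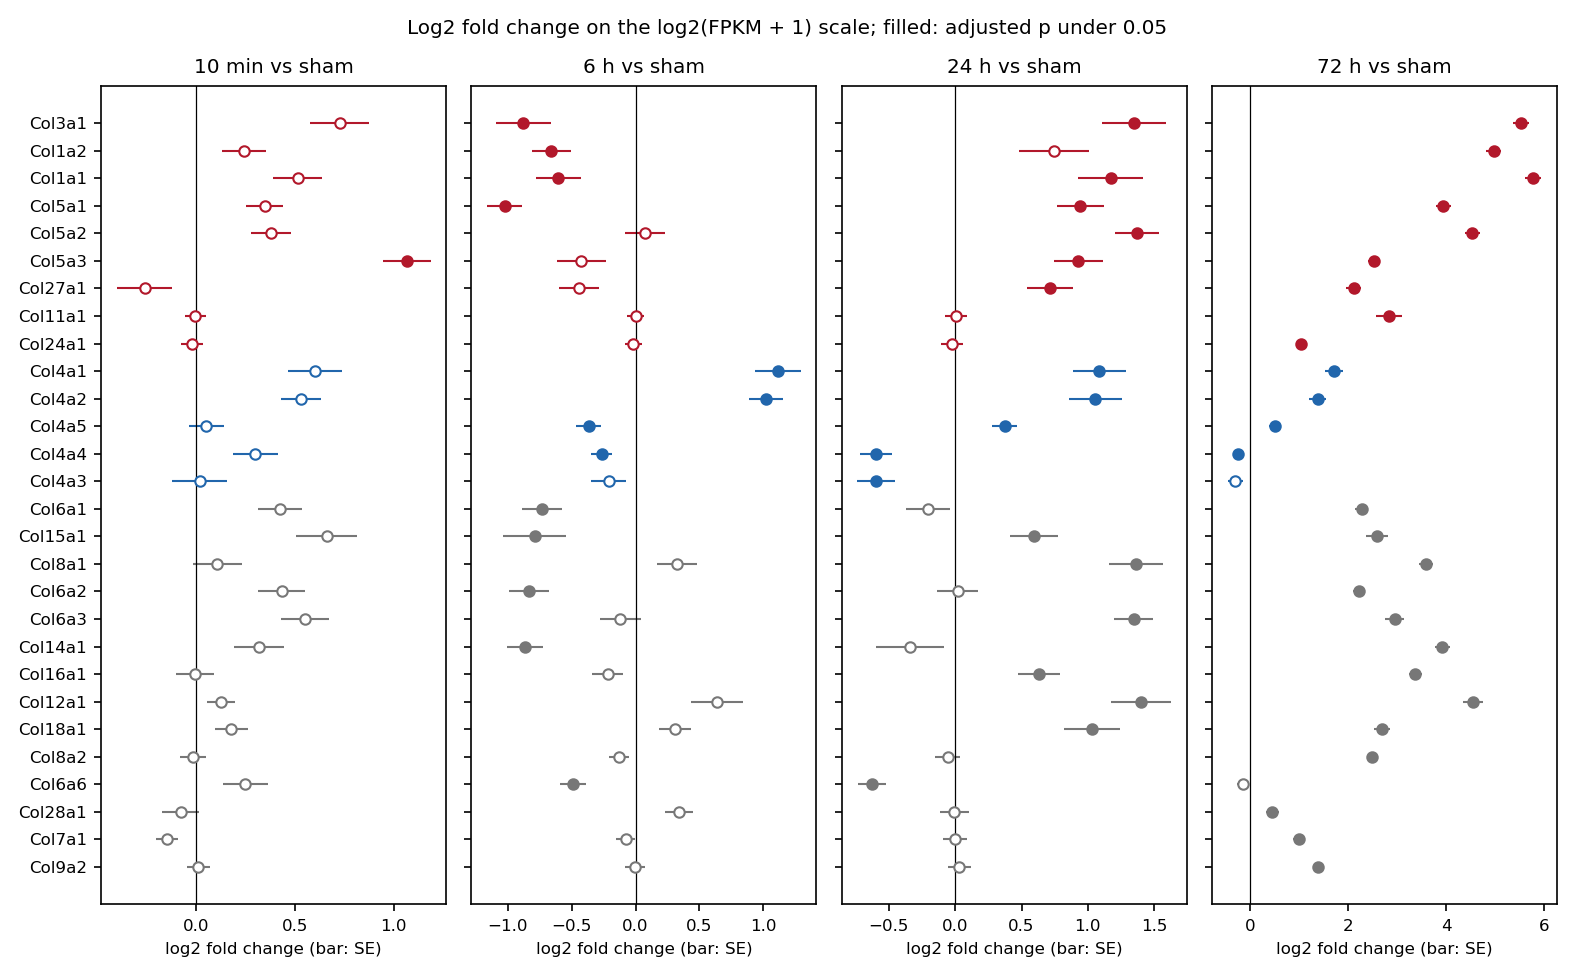
Log2 fold change of the 28 tested collagen genes against sham mice at 10 min, 6 h, 24 h and 72 h on the log2(FPKM + 1) scale, with bars for the SE (red fibrillar, blue basement membrane, grey other; each panel has its own x axis). Filled points have an adjusted p under 0.05, which holds for 1, 13, 18 and 26 genes.

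Most of the fibrillar change fell between 24 h and 72 h. In that direct comparison 23 of the 28 genes were higher and none lower, where 29.7% of all symbols were called higher and 13.5% lower. These were the 9 fibrillar and 14 other genes that passed the filter, and none of the 5 type IV genes was called. Of the 22 genes that did not owe their place to the 72 h mice alone, 17 were higher, and the remaining 6 of the 23 had passed the filter only through the group in which they were high. The log2 difference was 4.60 ± 0.25 for Col1a1, 4.25 ± 0.26 for Col14a1, 4.22 ± 0.27 for Col1a2 and 4.17 ± 0.22 for Col3a1 (adjusted p 3.78e-05 to 5.57e-05). For Col4a1 it was 0.62 ± 0.23 (adjusted p = 0.0643) and for Col4a2 0.32 ± 0.24 (adjusted p = 0.327). At an unadjusted p under 0.05, 25 genes were higher and 0 lower, against 34.7% and 16.9% of all symbols, and 2 of the type IV genes were among the 25. In 26 genes the 72 h values lay wholly above the 24 h values and in none wholly below, against 37.3% and 19.1% of all symbols. Over all symbols, median-of-ratios or quantile scaling moved the calls from 3963 higher and 1799 lower to 3159 and 2693 or 2775 and 3424, with 22 or 21 collagen genes higher and 0 lower.

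**Figure D5:**
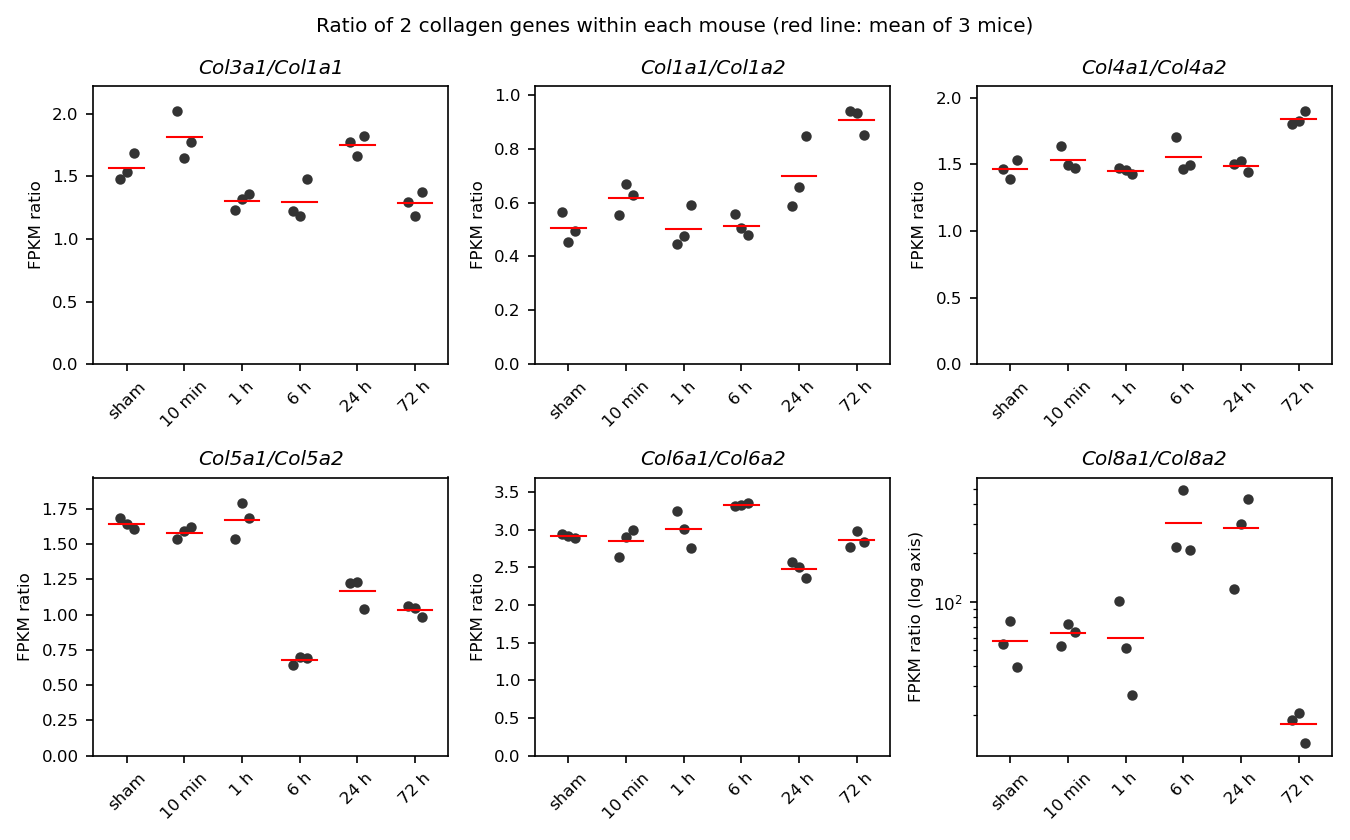
Ratio of FPKM of 2 collagen genes within each mouse by group, 1 point per mouse, with a red line at the mean of 3 mice; the Col8a1/Col8a2 panel has a log axis. The Col5a1/Col5a2 ratio is lowest at 6 h, and Col1a1/Col1a2 and Col4a1/Col4a2 are highest at 72 h.

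The genes that fold, modify and process collagen were described from a list of 30, all of them tested. Of these, 3 were called higher and 4 lower than in sham mice at 6 h, 19 higher and 2 lower at 24 h, and 27 higher and 1 lower at 72 h, beside the shares of all symbols given above. The median log2 differences were -0.17, 0.52 and 1.60. Lox, a lysyl oxidase that crosslinks collagen and elastin, had already risen at 6 h, from 1.79 ± 0.447 to 12.4 ± 1.20 FPKM, while Col1a1, Col1a2 and Col3a1 were lower, and stood at 133 ± 20.6 FPKM at 72 h (log2 5.59 ± 0.14, adjusted p = 1.77e-08). The collagen chaperone Serpinh1 stood at 196 ± 33.9 FPKM in the sham mice, 118 ± 41.2 at 6 h (adjusted p = 0.0587) and 548 ± 83.9 at 72 h (adjusted p = 2.39e-05). The prolyl hydroxylase subunit P4ha3 stood at 0.0571 ± 0.0224 FPKM in the sham mice and 23.4 ± 2.71 at 72 h. It reached at most 0.724 FPKM outside the 72 h group, so it passed the filter through the 72 h mice alone. It is nevertheless 1 of the 27 higher genes. Bmp1, which removes the C-propeptide, and Pcolce, its enhancer, stood at 217 ± 13.9 and 612 ± 25.2 FPKM at 72 h against 40.8 ± 4.38 and 117 ± 14.3. The lower gene at 72 h was Colgalt2, a galactosyltransferase of collagen hydroxylysine (log2 -0.77 ± 0.08).

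Of 10 tested genes of collagen breakdown and uptake, 5 were higher and 3 lower at 6 h, 4 higher and 3 lower at 24 h, and 9 higher and 1 lower at 72 h. The list holds inhibitors of metalloproteinases (the Timp genes) beside the enzymes, so its counts do not measure breakdown. The shares of all symbols called higher and lower were 11.6% and 16.8% at 6 h. They were 26.2% and 11.4% for 24 h, then 53.1% and 24.2% for 72 h. Mmp14, a membrane-bound collagenase, stood at 3.98 ± 0.158 FPKM in the sham mice, 11.7 ± 2.59 at 6 h and 123 ± 18.4 at 72 h. The endocytic collagen receptor Mrc2 stood at 15.9 ± 2.01, 9.52 ± 0.38 and 99.9 ± 10.7 FPKM at these times. Timp3, an inhibitor of metalloproteinases, was higher at 6 h (log2 0.68 ± 0.09) and the lower gene at 72 h (log2 -1.48 ± 0.10). Of 6 tested collagen receptors, 5 were higher at 72 h and none lower, beside the same 53.1% and 24.2% of all symbols. Itga11, the integrin subunit of fibroblasts for fibrillar collagen, stood at 0.91 ± 0.26 FPKM in the sham mice, 0.391 ± 0.118 at 6 h and 5.48 ± 0.799 at 72 h.

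Cell type markers also differed from the sham mice at 24 h and 72 h, some in the direction of the collagen genes and some in the other. The fibroblast markers summed to 395 to 475 FPKM at 24 h, below the 608 to 693 of the sham mice, with 2 of 8 called higher (Pdgfra and Mfap5) and 4 lower (Dcn, Gsn, Dpt and Fbln1), at a time when 6 of 9 fibrillar collagens were higher. At 72 h they summed to 1077 to 1321 FPKM, with 7 of 8 higher and Gsn lower. The myofibroblast markers summed to 133 to 184 FPKM in the sham mice, 105 to 153 at 6 h, 156 to 218 at 24 h and 1190 to 1380 at 72 h, with 5 of 5 higher at 72 h and Postn at 663 ± 18.0 FPKM. The endothelial markers summed to 794 to 918 FPKM at 24 h and 653 to 822 at 72 h, with 5 of 8 lower and none higher at either time, while Col4a1 and Col4a2 were higher. The cardiomyocyte markers summed to 17500.4 to 21288 FPKM at 72 h, with 6 of 6 lower, and the macrophage markers to 1189 to 1486 against 138 to 155, with 5 of 5 higher. Pericyte and smooth muscle markers were 2 of 7 higher and 4 lower at 72 h, mesothelial markers 2 of 4 higher, neutrophil markers 3 of 4 higher and Schwann markers 2 of 3 tested lower, where 53.1% of all symbols were called higher and 24.2% lower. The part of these shifts in the collagen values was not tested.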

How the data were processed

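RNA-seq of heart tissue from 18 mice, 3 separate animals per group, was analysed. Per the labels and methods, the authors trimmed reads with cutadapt 1.18, aligned them to mm10 with HISAT2 2.1.0 and deposited FPKM per gene symbol and mouse from StringTie 1.3.4d. The annotation and strand setting are not given in the sources used here. FPKM divides by all mapped fragments, so a large rise in some genes lowers the values of the rest. Read totals are not known, and relative depth was taken as the most frequent ratio of FPKM at or below 0.3 to the first sham mouse, in place of the planned median ratio, which followed expression.

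The test covered the 13333 symbols that reached FPKM 1 in any mouse, and was run on log2(FPKM + 1) by limma 3.58.1 in R 4.3.3 (lmFit, eBayes with trend, two-sided), with the 6 mice of each comparison, Benjamini-Hochberg adjustment over all symbols tested and a threshold of 0.05. The test was tried on simulated data. Ratios within a mouse were compared by exact two-sided permutation over 30 tests. Collagen genes with a mean of at least 10 FPKM in any group and those past the threshold are named with values per mouse or their mean, and others by range. The members, classes and gene lists were chosen with earlier results of these data known, and the comparisons with sham mice share the same 3 animals. Column names that spelled the 1 h and 1 of the 6 h samples differently from the labels were matched by name. Replicate numbers gave no clear sign of pairing the mice: 5 of 21 sample pairs correlated best with their own number, and not every correlation of deviations exceeded 0.1. These correlations ranged from -0.33 to 0.41, and with 3 mice per group they cannot exclude a shared batch. Alternatives were another pseudocount (0.1), other filters, scalings and variance priors, a common fit of all mice, a replicate block and leaving out each mouse. Helix runs and exons were computed from GENCODE M21 and promoters read from RefSeq windows. No protein sequences were used here.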

Additional observations from a re-analysis of the deposited data

Results flagged for a closer look

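Collagen genes called lower than in sham mice at 6 h and higher at a later time were compared directly between those times by limma with Benjamini-Hochberg adjustment, because both calls share the same 3 sham mice. The genes were chosen by their values in these same mice, so a positive difference was favored from the start. The p-values below are therefore no separate support. Listing also required an adjusted p under 0.05 in the direct comparison, which left out none of the 5 genes for 24 h or the 9 for 72 h. Between 24 h and 6 h the log2 fold change was 2.23 for Col3a1 (adjusted p = 0.0103), 1.97 for Col5a1 (0.00884), 1.78 for Col1a1 (0.014), 1.39 for Col15a1 (0.0224) and 0.74 for Col4a5 (0.0172), with all 3 mice at 24 h above all 3 at 6 h. These 5 calls were lost without the second or the third 6 h mouse, settings in which 1 higher and 1 lower call remained over all symbols. Between 72 h and 6 h, a comparison added after the data were seen, it was 6.40 for Col3a1 (adjusted p = 3.07e-07), 6.38 for Col1a1 (3.07e-07), 5.62 for Col1a2 (3.26e-07), 4.97 for Col5a1 (4.02e-07) and 4.78 for Col14a1 (3.29e-07). It was 3.38 for Col15a1 (2.19e-05), 3.05 for Col6a2 (1.27e-06), 3.0 for Col6a1 (1.78e-06) and 0.86 for Col4a5 (0.000388).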

How the results depend on the processing

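The count of collagen genes higher at 72 h was 25 without any 1 mouse, and a pseudocount of 0.1 moved no count by over 1.5 times. At 10 min the count of 1 higher gene became 0 with no filter, in a fit of all 18 mice or with no variance trend, and 0 to 1 when 1 mouse was left out. Over all symbols the 33 higher calls at 10 min became 1, 3 and 5 in the first 3 of these settings. The 11 lower genes at 6 h became 7 after median-of-ratios scaling and 3 to 11 without 1 mouse. Without 1 mouse the lower calls over all symbols at 6 h ranged from 852 to 2894. At 24 h the 15 higher genes ranged from 8 to 16 and the 3 lower genes from 1 to 3 without 1 mouse, and a mean FPKM filter left 0 lower. The calls over all symbols at 24 h ranged from 1262 to 4043 higher and from 366 to 1796 lower without 1 mouse. The 1 lower gene at 72 h became 0 with a mean FPKM filter or sum scaling, 2 after median-of-ratios scaling, 3 after quantile normalization and 0 to 3 without 1 mouse. Col28a1 at 72 h turned to -0.11 on the log2 scale after quantile normalization. Between 24 h and 6 h the 13 higher genes became 8 after median-of-ratios or quantile scaling and 0 to 14 without 1 mouse (0 without the second or the third 6 h mouse, 2 without the second 24 h mouse), and the 0 lower genes became 2 with no filter, 1 after quantile normalization and 3 in a fit of all 18 mice. With the replicate block, although the numbers gave no clear sign of pairing, the counts were 2 higher at 10 min, 0 lower at 72 h and 0 higher between 24 h and 6 h, where 13 had been called. Between 24 h and 6 h the calls over all symbols also fell, from 1664 higher and 258 lower to 1 and 0 with this block. They fell to 1 and 1 without the second or the third 6 h mouse. Beyond the construction of each setting, the cause of these differences was not tested. Read depth is unknown, so values near or below FPKM 1 carry no counting interval.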
